A study of Mus musculus with 51 samples.

Results

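The 52 genes described here encode the semaphorins, their plexin and neuropilin receptors, the ephrins and the Eph receptors of the mouse. They were chosen by symbol: every gene whose symbol begins with Sema, Plxn, Epha, Ephb, Efna or Efnb, together with Nrp1 and Nrp2, that had at least 10 reads in at least 3 libraries. All 52 candidate symbols met this level, out of 22609 symbols in the count tables. They comprise 7 secreted semaphorins of class 3, 12 membrane-bound semaphorins of classes 4 to 7, 2 neuropilins, 9 plexins, 5 ephrin-A ligands, 3 ephrin-B ligands, 9 EphA receptors and 5 EphB receptors.

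Messenger RNA was sequenced from the hind paw (punch biopsies of skin), the L3 to L5 dorsal root ganglia (DRG, the seat of sensory neuron cell bodies) and the lumbar spinal cord of male C57 mice aged 8 to 12 weeks. Paclitaxel (PTX), a chemotherapy drug that binds microtubules and causes sensory neuropathy, was given intraperitoneally at 2 mg/kg in 2 injections 1 day apart, and control mice received vehicle. DRG and paw were taken on days 2, 7, 22 and 35 counted from the last injection, each with a vehicle group at day 2 alone. One series of cord libraries, called set A here, holds PTX and vehicle groups at days 1 and 7. Another, called set B, holds PTX groups at days 1, 22 and 35 and no vehicle. Days follow the sample titles, which name the PTX groups of set A "ipsi" and differ in part from the days in the study's design text. There were 17 groups of 3 libraries, 51 in all, and separate animals are not stated for the libraries within a group, so p-values measure the spread between libraries, which may be partly technical. The tables of set B and of DRG and paw at day 35 name their unassigned-read lines differently from the other tables, so that table format, day and drug cannot be told apart there.

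Semaphorins and ephrins are guidance cues that steer growing axons, migrating cells and sprouting vessels, mostly by repulsion. Class 3 semaphorins are secreted and signal through a neuropilin that binds the cue and a plexin that carries the signal, whereas membrane-bound semaphorins bind plexins directly. Ephrins are tethered to the membrane of one cell and bind Eph receptor tyrosine kinases on its neighbour, ephrin-A ligands by a lipid anchor and ephrin-B ligands by a transmembrane stretch. In the adult, many of these genes stay active in sensory neurons, glia, skin and vessels.

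The reads assigned to genes came to between 18645710 and 27257659 per DRG library, between 13346971 and 21697763 per paw library and between 17661067 and 30247230 per cord library. The tissue labels were checked against markers: all 9 sensory neuron markers were higher in vehicle DRG than in vehicle paw, by a median log2 fold change of 8.07, all 9 keratinocyte markers were lower, by a median of -8.89, and 5 of 8 central neuron markers were lower in DRG than in cord. Paw vehicle replicate 2 stood apart in its unassigned reads, with 157 multiply aligned reads per 100 gene reads. Its reads in no annotated gene came to 44.1 per 100 gene reads, against 16.8 to 23.7 in the other paw libraries. That library belongs to the only vehicle group of paw. The cord libraries of set A day 1 did not all match their tissue. The sensory neuron markers summed to 3772, 1308 and 2227 CPM (the usual depth-scaled read count) in its PTX libraries and to 83.0, 2186 and 2014 CPM in its vehicle libraries, against 79.2 to 182 CPM in the other 15 cord libraries. Values without these 6 libraries are given for part of the results that rest on them. The PTX effect of set A at day 1, its difference from day 7 and the comparison of the sets at day 1 have none.

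The promoters of the genes on which the results turn are shown first, so that they can be set beside the values: Plxnc1 and Epha1 are receptors with wide and opposite differences between DRG and paw, Ephb1 led in cord, and Epha5, Nrp2 and Epha3 were the members called after PTX. Each is the 250 bases before the annotated start, from the RefSeq table of build GRCm38.p6, read 5′ to 3′ on the gene's strand, with each GC box (GGGCGG or, on the other strand, CCGCCC) in capitals. The windows are chr10:94944846-94945095 on the minus strand for Plxnc1, chr6:42373269-42373518 on the minus strand for Epha1, chr9:102354694-102354943 on the minus strand for Ephb1, chr5:84417383-84417632 on the minus strand for Epha5, chr1:62703067-62703316 on the plus strand for Nrp2 and chr16:63864176-63864425 on the minus strand for Epha3.
Plxnc1: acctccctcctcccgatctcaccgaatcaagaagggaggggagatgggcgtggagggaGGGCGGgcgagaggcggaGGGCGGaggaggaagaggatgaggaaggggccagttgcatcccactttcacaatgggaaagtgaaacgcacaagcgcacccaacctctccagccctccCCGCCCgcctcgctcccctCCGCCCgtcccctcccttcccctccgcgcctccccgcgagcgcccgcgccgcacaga
Epha1: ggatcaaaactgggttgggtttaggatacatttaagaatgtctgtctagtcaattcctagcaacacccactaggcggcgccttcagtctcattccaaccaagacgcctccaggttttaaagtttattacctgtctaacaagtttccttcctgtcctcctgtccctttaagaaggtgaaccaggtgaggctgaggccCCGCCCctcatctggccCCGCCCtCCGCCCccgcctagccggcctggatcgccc
Ephb1: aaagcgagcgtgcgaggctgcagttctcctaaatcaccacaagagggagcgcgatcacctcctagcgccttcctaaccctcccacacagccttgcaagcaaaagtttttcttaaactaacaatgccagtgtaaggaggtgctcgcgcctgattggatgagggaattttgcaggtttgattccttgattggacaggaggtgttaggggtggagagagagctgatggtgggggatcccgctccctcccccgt
Epha5: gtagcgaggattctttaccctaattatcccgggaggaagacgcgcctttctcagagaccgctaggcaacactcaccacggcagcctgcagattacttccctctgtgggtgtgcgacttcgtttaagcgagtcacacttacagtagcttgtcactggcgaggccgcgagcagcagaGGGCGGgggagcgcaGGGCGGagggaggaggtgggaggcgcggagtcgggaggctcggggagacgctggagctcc
Nrp2: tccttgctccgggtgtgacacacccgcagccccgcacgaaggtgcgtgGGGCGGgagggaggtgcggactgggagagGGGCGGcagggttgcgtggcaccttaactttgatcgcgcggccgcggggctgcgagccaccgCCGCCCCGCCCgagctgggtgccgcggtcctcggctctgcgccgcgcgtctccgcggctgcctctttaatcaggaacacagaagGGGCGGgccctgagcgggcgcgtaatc
Epha3: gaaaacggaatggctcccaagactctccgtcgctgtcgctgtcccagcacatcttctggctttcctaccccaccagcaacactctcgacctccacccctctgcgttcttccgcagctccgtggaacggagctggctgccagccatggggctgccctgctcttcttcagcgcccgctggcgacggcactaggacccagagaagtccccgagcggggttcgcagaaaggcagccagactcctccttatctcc
Nrp2 held 5 GC boxes in this window, Plxnc1 held 4, Epha1 held 3 and Epha5 held 2, whereas Ephb1 and Epha3 held 0. Of 61 promoters listed for 47 of the 52 genes, 46 (75.4%) held at least 1 GC box, against 32.7% of all 32851 mouse promoters in the table. The TATA box, TATAAA on either strand, was in 1 of the 61 (1.64%), against 12.4% of all promoters, and the CCAAT box, CCAAT on either strand, was in 19 (31.1%), against 33.8%. These matches describe the letters in the window and do not show a bound site. Plxnc1 and Epha1, which differed in opposite directions between DRG and paw, both held several GC boxes.

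The levels of the family differed by tissue, and each tissue had its own leading members. Levels are compared between genes as CPM per kilobase of exon, the mean and SD of 3 vehicle libraries, or of the 6 vehicle libraries of cord, scaled over all 51 libraries. In DRG the highest level of the 52 genes was that of Sema3b, a secreted cue, at 187 ± 18, followed by Sema7a at 45.2 ± 3.1, Sema4c at 40.8 ± 5.9, Plxnd1 at 39.2 ± 0.52, Sema4f at 35.6 ± 5.1 and Plxnc1 at 35.2 ± 2.1. In cord it was that of Efnb3, an ephrin-B known from the midline of the developing cord, at 81.2 ± 20, followed by Sema3b at 68.5 ± 49 and Sema7a at 61.8 ± 8.6. In the 3 cord vehicle libraries of day 7 alone, Efnb3 stood at 97.97 ± 7.5, Sema7a at 68.4 ± 6.1 and Sema3b at 33.0 ± 13, so that Sema3b lay below Sema7a without day 1. In paw it was that of Ephb6, an Eph receptor without kinase activity, at 62.0 ± 4.1, followed by Efna3 at 53.9 ± 5.2, Epha1 at 37.2 ± 5.6 and Plxnb2 at 35.8 ± 2.4. In bulk tissue, fewer cells of a type and less RNA per cell cannot be told apart.

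**Figure D1:**
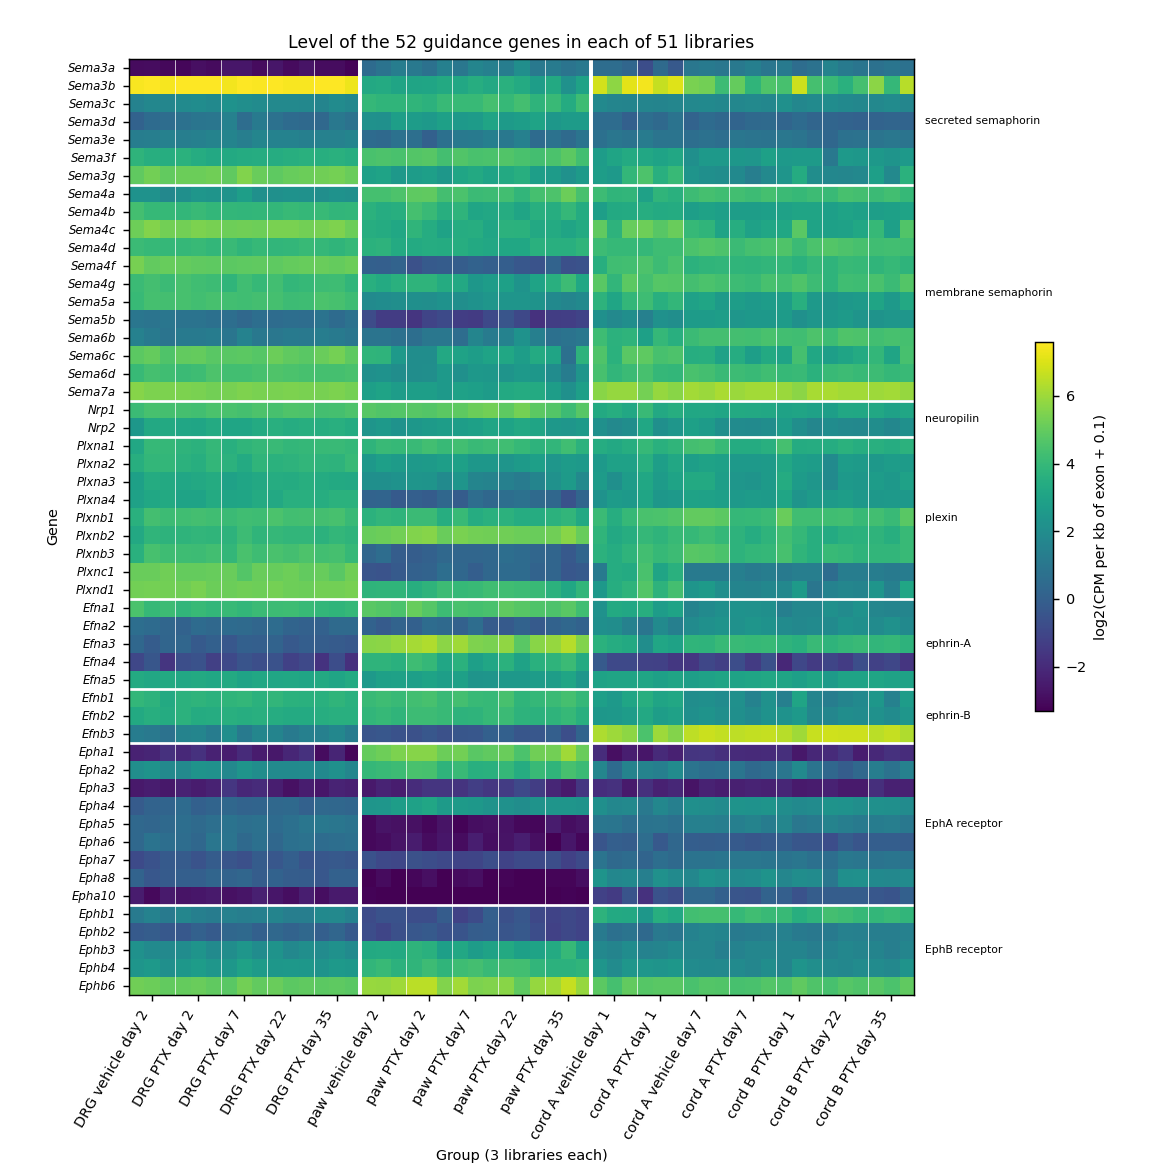
Levels of the 52 genes (rows, by role) in the 51 libraries (columns, by tissue and group), as log2 of CPM per kilobase of exon plus 0.1. Sema3b stands out in DRG, Efnb3 in cord, and Epha1, Efna3 and Efna4 in paw, while within a tissue the columns differ far less than between tissues.

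With the 6 set A day 1 libraries left aside, the median level was highest in DRG for 19 genes, in cord for 13 and in paw for 20. For 11 of the 19, 11 of the 13 and 10 of the 20, every library of the leading tissue lay above every library of the next. The same counts were not made over all genes, so neither these nor the counts by role that follow set the family apart. Plexins were highest in DRG for 7 of 9 genes and in paw for 2. Membrane-bound semaphorins were highest in DRG for 6, in cord for 5 and in paw for 1, and secreted ones in DRG for 3 and in paw for 4. EphA receptors were highest in paw for 4, in cord for 4 and in DRG for 1, EphB receptors in paw for 3 and in cord for 2, and ephrins in paw for 5 of 8.

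Between vehicle DRG and vehicle paw, the quasi-likelihood test of edgeR, with p-values adjusted by Benjamini and Hochberg, called 46 of the 52 genes at an adjusted p under 0.05, 29 higher and 17 lower in DRG. The same test called 79.8% of all genes tested in this contrast, 39.8% higher and 40% lower, so a call between tissues is the rule rather than a mark of the family. The median log2 fold change of the 52 genes was 0.54, and that of all genes tested was near 0. Of the 12 membrane-bound semaphorins 10 were higher in DRG and 1 was lower, and of the 9 plexins 6 were higher and 1 was lower. The 7 secreted semaphorins split into 3 higher and 4 lower, the 9 EphA receptors into 4 higher and 3 lower, and the 5 EphB receptors into 2 higher and 3 lower.

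**Figure D2:**
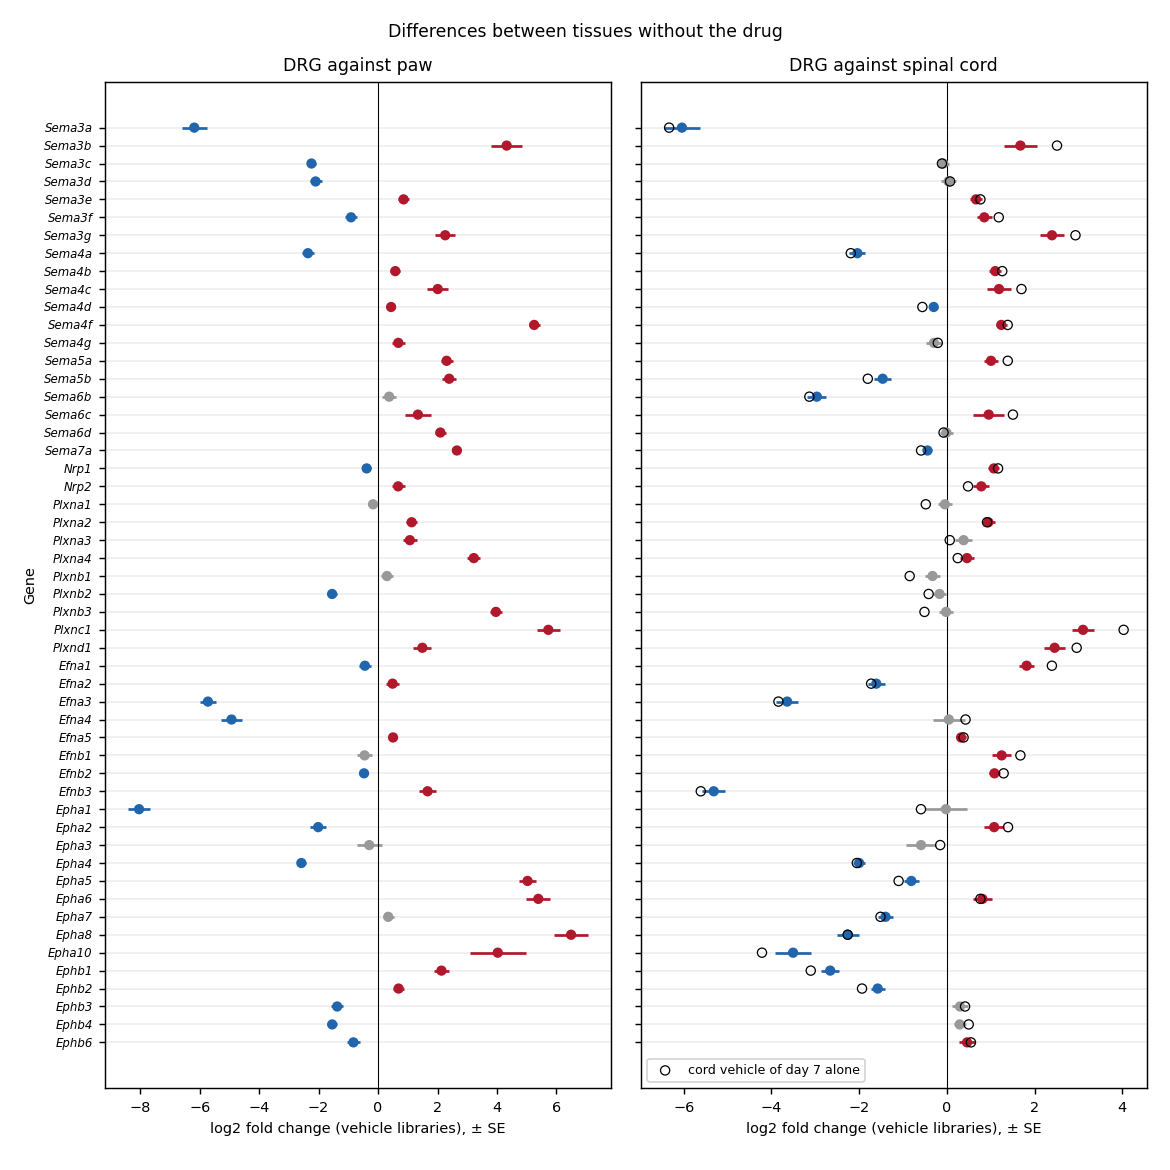
Log2 fold change with its standard error (x axis) for each of the 52 genes (y axis, by role) in vehicle DRG against paw and in vehicle DRG against cord. Red marks genes called higher in DRG, blue those called lower, grey those not called, and open circles give the value with cord vehicle day 7 alone; Plxnc1 lies far to the right in both comparisons and Epha1 far to the left against paw only.

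Among the secreted semaphorins, Sema3b, a ligand of neuropilin receptors, stood at 659, 769 and 652 CPM in the DRG vehicle libraries and at 35.9, 37.4 and 30.5 CPM in the paw ones. The groups were far apart, and the log2 difference was 4.33 ± 0.52 (adjusted p 1.49e-09). Sema3g, another neuropilin ligand, was also higher in DRG by 2.26 ± 0.33 and Sema3e, which binds Plxnd1 without a neuropilin, by 0.86 on the log2 scale. Sema3a, the repellent of sensory axons that signals through Nrp1, was nearly absent from DRG, at 0.149, 0.190 and 0.0997 CPM, and reached 8.10, 10.4 and 14.6 CPM in paw. Its log2 difference of DRG from paw was -6.18 ± 0.42. Sema3c stood at 15.2, 17.9 and 17.4 CPM in DRG against 83.9, 77.2 and 78.0 CPM in paw, a log2 difference of -2.24 ± 0.15, and Sema3d differed by -2.10 ± 0.20. Sema3f, a class 3 ligand of Nrp2, had the highest level of its class in paw, at 22.5 ± 0.96 CPM per kilobase. Skin thus held more Sema3a, Sema3c, Sema3d and Sema3f message than the ganglion, and the ganglion more Sema3b, Sema3e and Sema3g.

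Among the membrane-bound semaphorins, Sema4f showed the widest difference, with 169, 130 and 137 CPM in DRG and 3.71, 3.64 and 4.09 CPM in paw. The log2 difference was 5.25 ± 0.19 (adjusted p 1.19e-24). Sema7a, a lipid-anchored semaphorin that binds Plxnc1, stood at 161, 145 and 142 CPM in DRG and at 23.5, 26.3 and 21.3 CPM in paw, a log2 difference of 2.65 ± 0.13. Sema5b was higher in DRG by 2.39. Sema4a, known for its part in immune cells, went the other way, with 16.0, 16.0 and 11.3 CPM in DRG and 71.3, 70.6 and 80.7 CPM in paw, and was the 1 gene of its class called lower in DRG, by -2.36 ± 0.20.

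Among the receptors for semaphorins, Plxnc1 had the largest difference. It stood at 247, 249 and 275 CPM in DRG and at 4.65, 4.40 and 5.43 CPM in paw, a log2 difference of 5.73 ± 0.38 (adjusted p 1.41e-16). Plxnb3, a receptor for Sema5a, was higher in DRG by 3.96 ± 0.21 and Plxna4, which takes part in Sema3a signalling, by 3.22 ± 0.21. Plxnb2, a receptor for class 4 semaphorins, was the 1 plexin called lower in DRG, with 62.5, 90.4 and 86.2 CPM against 219, 229 and 250 CPM in paw. Its log2 difference was -1.55 ± 0.17. The co-receptor Nrp1 was lower in DRG by -0.38, and it had the higher level of the neuropilins in each tissue, at 19.8 ± 2.1 CPM per kilobase in DRG, 25.9 ± 1.0 in paw and 9.45 in cord. Plxna1 and Plxnb1 were not called.

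The widest difference in favour of skin was that of an Eph receptor. Epha1, an Eph receptor known from epidermis, stood at 106, 118 and 142 CPM in paw and at 0.347, 0.380 and 0.648 CPM in DRG. Its log2 difference was -8.04 ± 0.36 (adjusted p 1.5e-21). The ligand Efna3 stood at 118, 123 and 141 CPM in paw and at 2.72, 1.90 and 2.59 CPM in DRG, a log2 difference of -5.72 ± 0.28. Efna4, another ephrin-A, differed by -4.93 ± 0.36, the receptor Epha4 by -2.58 ± 0.15 and Epha2, a receptor of epithelia, by -2.02 ± 0.26. A group of EphA receptors went the other way and was close to undetected in skin. Epha5 stood at 8.81, 8.31 and 8.88 CPM in DRG and at 0.126, 0.352 and 0.289 CPM in paw, a log2 difference of 5.03 ± 0.29, and Epha6 differed by 5.39 ± 0.40. Epha8 had 237 reads over the 3 DRG libraries and 2 over the 3 paw libraries, a ratio of 104 after scaling to library size, with an exact 95% interval of 28.5 to 863, which covers counting error only. Epha10, an Eph receptor without kinase activity, had 24 reads in DRG and 1 in paw, a ratio of 21 with an interval of 3.43 to 865. Efnb1, Epha3, Epha7 and Sema6b were not called, and Efnb2 was lower in DRG by -0.47. The ephrins called higher in DRG were Efnb3 by 1.66 ± 0.29, Efna5 by 0.50 ± 0.13 and Efna2 by 0.49 ± 0.22.

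Against cord, DRG was higher in 22 genes and lower in 16, or 38 called of 52, where 61.1% of all genes were called, 31.2% higher and 29.9% lower. Without the 6 cord libraries of set A day 1, 42 genes were called, 22 higher and 20 lower, and 37 of the calls were the same in the same direction. Plxna4 was called only with those libraries, and Ephb4, Plxna1, Plxnb1, Plxnb2 and Plxnb3 only without them. With them, the plexins called were 4, all higher in DRG; without them, 3 were higher (Plxna2, Plxnc1 and Plxnd1) and 4 were lower, Plxna1 by -0.48 ± 0.19, Plxnb1 by -0.85 ± 0.20, Plxnb2 by -0.42 ± 0.17 and Plxnb3 by -0.51 ± 0.19 on the log2 scale. Ephb4 was then higher by 0.50 ± 0.16. In both fits the neuropilins were higher, and EphA receptors were mostly lower, with 2 higher and 5 lower of 9.

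Plxnc1 and Plxnd1, the plexin that binds Sema3e, were the plexins furthest above cord. Plxnc1 stood at 16.0, 79.1 and 74.5 CPM in the cord vehicle libraries of day 1 and at 15.9, 15.9 and 15.6 CPM in those of day 7, so that only the libraries with sensory neuron transcripts left the level of day 7. The log2 difference of DRG from cord was 3.10 ± 0.25 (adjusted p 4.41e-13) and, without set A day 1, 4.03 ± 0.18 (adjusted p 1.48e-19). Plxnd1 differed by 2.46 ± 0.25, or by 2.96 without them, and Nrp1 by 1.07 ± 0.12. The ligand Sema7a stood at 165, 190 and 192 CPM in cord vehicle at day 1 and at 224, 206 and 246 CPM at day 7, all above the 3 DRG libraries, while its receptor Plxnc1 had a level of 2.17 CPM per kilobase at day 7 and of 4.95 ± 4.3 over the 6 vehicle libraries, against 35.2 ± 2.1 in DRG.

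The members that led in cord were membrane-bound semaphorins, ephrins and Eph receptors. Efnb3 stood at 243, 203 and 170 CPM in cord at day 1 and at 289, 336 and 311 CPM at day 7, against 7.33, 6.5 and 5.19 CPM in DRG. Its log2 difference of DRG from cord was -5.32 ± 0.26 (adjusted p 6.01e-19), and that of cord from paw was 6.98 ± 0.30 (adjusted p 1.2e-22). Ephb1, an Eph receptor for ephrin-B ligands, stood at 61.5, 46.2 and 44.7 CPM in cord at day 1, at 90.3, 97.6 and 97.3 CPM at day 7 and at 10.2, 12.9 and 9.77 CPM in DRG, and differed by -2.66 ± 0.20 (adjusted p 4.97e-14), or by -3.10 ± 0.19 without set A day 1. Sema6b, a ligand of Plxna4, was lower in DRG by -2.97 ± 0.22, Sema3a by -6.04 ± 0.41, Efna3 by -3.64 ± 0.25, Epha10 by -3.51 and Epha8 by -2.26 on the log2 scale. Sema4a, Efna2 and Sema5b were lower by -2.04, -1.61 and -1.46. Of the genes named here as lower in DRG, Sema3a, Efna3 and Sema4a did not lead in cord. Their median levels were higher in paw. On the DRG side, Sema3g was higher than in cord by 2.40 ± 0.26, Efna1 by 1.82 ± 0.17, Sema3b by 1.68 ± 0.38, Efnb1 by 1.25, Sema4f by 1.24, Sema4c by 1.19, Sema4b by 1.10 and Efnb2 and Epha2 by 1.08 each. Without set A day 1 each of these differences was wider, that of Epha8 by under 0.01. Sema3a was then lower in DRG by -6.33 ± 0.39, Efnb3 by -5.61 ± 0.21, Epha10 by -4.22 ± 0.39, Efna3 by -3.84 ± 0.24 and Sema6b by -3.14 ± 0.21, and Sema3g was higher by 2.93 ± 0.31, Sema3b by 2.51 ± 0.48, Efna1 by 2.39 ± 0.17, Sema4c by 1.70 ± 0.33 and Efnb1 by 1.68 ± 0.28. With the set A day 1 libraries kept, Sema3f was higher in DRG than in cord by 0.85 ± 0.17, Epha6 by 0.81 ± 0.22 and Ephb6 by 0.46 ± 0.18.

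Cord differed from paw in 42 of the 52 genes, 24 higher and 18 lower in cord, where 84% of all genes were called, 42% in either direction. Without set A day 1 there were 23 higher and 19 lower, with 41 calls shared. Membrane-bound semaphorins were higher in cord for 9 of 12 genes and lower for 1. Epha5 differed by 5.84 ± 0.27, Sema4f by 4.01, Plxnb3 by 3.98 ± 0.20, Sema5b by 3.86, Sema6b by 3.34, Plxna4 by 2.76 and Efna2 by 2.10. On the paw side, Epha1 differed by -8.02 ± 0.26, Efna4 by -4.97, Epha2 by -3.09, Efna1 by -2.26, Sema3c by -2.16, Ephb4, the receptor of Efnb2 on veins, by -1.84, Sema3f by -1.76 and Nrp1 by -1.45. Sema3d differed in the same direction by -2.14, Efna3 by -2.08, Plxnb2 by -1.38, Plxnd1 by -0.97 and Sema4b by -0.52. Plxnc1 was higher in cord by 2.62 ± 0.32 and by 1.72 ± 0.18 without set A day 1, and Sema3b by 2.65 and by 1.83. The fold changes of the other genes named here are given only with set A day 1 kept. Epha8 had 3040 reads in cord vehicle against 2 in paw, a ratio of 499 with an exact 95% interval of 138 to 4123, and Epha10 had 806 against 1, a ratio of 265 with an interval of 47.4 to 10467.

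The partner genes of these pathways also differed by tissue. Of 22 other axon guidance ligands and receptors (netrin, Slit, Robo and repulsive guidance families) 14 were higher in DRG than in paw and 6 were lower, with a median log2 fold change of 2.65, and against cord 7 were higher and 10 lower. Of 29 intracellular partners of semaphorin signalling 18 were higher and 6 lower than in paw, and 14 higher and 6 lower than in cord. Of 20 partners of ephrin signalling 10 were higher and 8 lower than in paw, and 8 higher and 7 lower than in cord. Of all genes tested, 39.8% were higher and 40% lower in DRG than in paw. Against cord, 31.2% were higher and 29.9% lower.

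After PTX the changes of the 52 genes within a tissue were small beside these differences. In DRG, 51 genes could be tested (Sema3a was too low), and the vehicle group of day 2 served all 4 days, so that drug and day cannot be told apart at days 7, 22 and 35. Values from here on are CPM scaled within the tissue. The test called 0 genes at days 2, 7 and 22 and 1 at day 35, where the shares of all genes called were 0%, 0.157%, 0% and 0.209%. At an unadjusted p under 0.05 there were 4 genes at day 2, 14 at day 7, 8 at day 22 and 7 at day 35, against 7.6%, 22.4%, 8.85% and 13% of all genes. DESeq2 called 0, 4, 0 and 2 genes. Here and below, the shares of all genes are those of edgeR. The shares called by DESeq2 are not given, so its counts have no background beside them. The median log2 fold changes of the 51 genes were 0.09, 0.09, 0.05 and 0.08, beside medians near 0 over all genes.

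Epha5, a receptor for ephrin-A ligands that is present on neurons, was the member called at day 35. It stood at 8.54, 8.10 and 8.56 CPM in vehicle, at 9.98, 8.92 and 11 at day 2, at 12.3, 11.1 and 11.5 at day 7, at 9.54, 10.9 and 13 at day 22 and at 14.0, 13.1 and 12.2 at day 35. All 12 PTX libraries lay above all 3 vehicle libraries. The log2 fold change was 0.47 ± 0.12 (adjusted p 0.0835) at day 7, 0.41 ± 0.12 (adjusted p 0.433) at day 22 and 0.64 ± 0.11 (adjusted p 0.0370) at day 35. Leaving out any 1 of the 6 libraries of the day 35 comparison, each in turn, ended the call, with adjusted p between 0.0913 and 0.173, and fitting only those 6 gave 0.0825. The sensory neuron markers summed to 5407 to 6075 CPM in vehicle and to 5257 to 5907 CPM at day 35, and 0 of the 9 was called.

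Other members approached the threshold at day 7. Sema3c stood at 14.8, 17.5 and 16.7 CPM in vehicle and at 25.1, 23.2 and 20.1 CPM at day 7, with no overlap, and differed by 0.48 ± 0.10 on the log2 scale (adjusted p 0.0661). At day 35 it was at 15.5, 20.04 and 17.3 CPM, which overlapped vehicle. Sema3d differed by 0.79 ± 0.22 (adjusted p 0.0987) and Epha3, an EphA receptor at low level, by 1.30 ± 0.36 (adjusted p 0.0962), with 0.384, 0.463 and 0.337 CPM in vehicle and 1.31, 0.761 and 0.869 CPM at day 7. DESeq2 called Epha5, Ephb2, Sema3c and Sema3d at day 7, and edgeR called Epha5, Ephb2 and Sema3c when PTX day 7 replicate 3 was left out. In the same libraries the adipocyte markers summed to 102 to 145 CPM in vehicle and to 174 to 193 CPM at day 7, and 3 of 9 were called higher. Their part in these values was not tested.

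At day 2 the smallest p-values belonged to Efna1, Sema3c, Sema3d and Sema4f, none called. Efna1 stood at 39.97, 28.01 and 31.6 CPM in vehicle and 25.3, 29.2 and 27.4 CPM after PTX, a log2 difference of -0.28 ± 0.11 (adjusted p 0.642). Sema3c differed by 0.27 ± 0.10, Sema3d by 0.54 ± 0.22 and Sema4f by -0.20 ± 0.08. At day 22 they belonged, after Epha5, to Ephb2, Sema5b and Sema6d. Ephb2, a receptor for ephrin-B ligands, stood at 8.06, 8.84 and 7.5 CPM in vehicle and at 12.7, 10.6 and 12.5 CPM at day 22, a log2 difference of 0.55 ± 0.16. Sema5b differed by -0.37 ± 0.11 (adjusted p 0.443) and Sema6d, a ligand of Plxna1, by 0.31 ± 0.11 (adjusted p 0.473). Plxna4, which was chosen here because DESeq2 called it at day 35, stood at 94.5, 113 and 122 CPM in vehicle, at 123, 146 and 148 CPM at day 22 and at 140, 155 and 159 CPM at day 35. The day 35 values lay above all vehicle values, and edgeR gave 0.47 ± 0.12 with an adjusted p of 0.194.

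**Figure D3:**
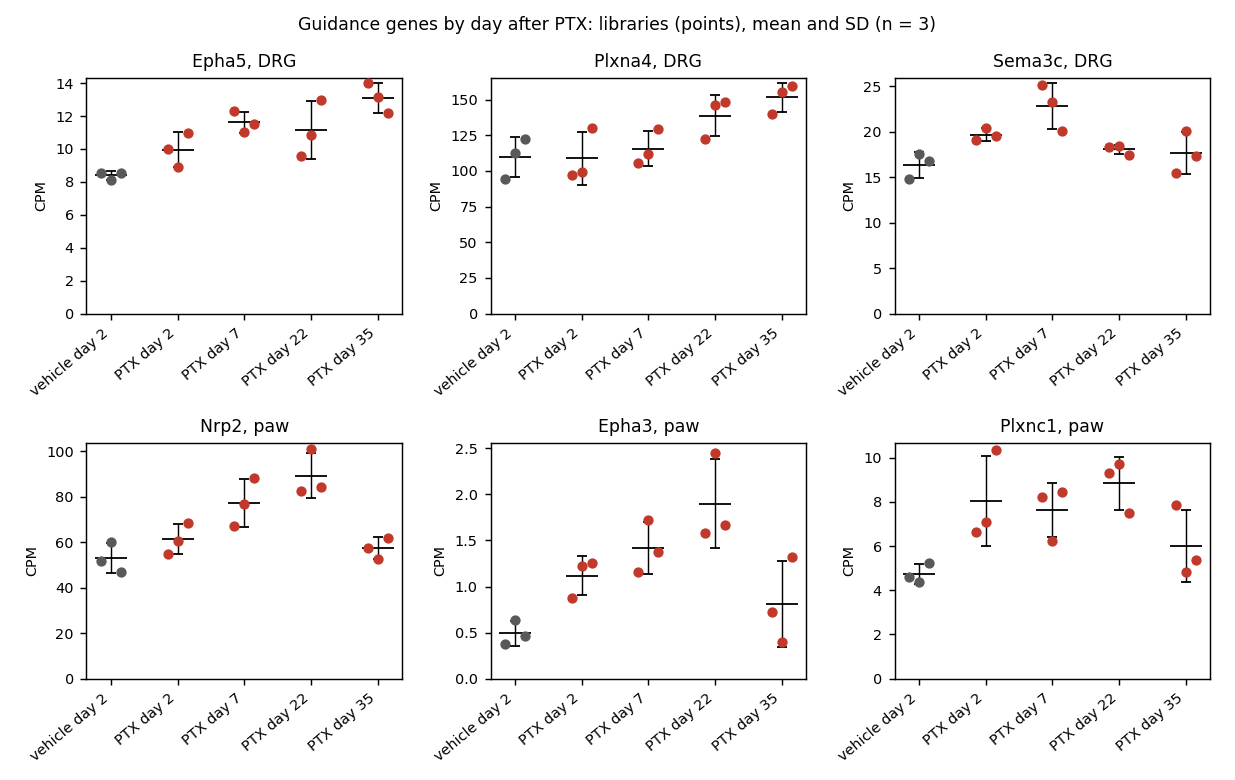
CPM (y axis, scaled within the tissue) of Epha5, Plxna4 and Sema3c in DRG and of Nrp2, Epha3 and Plxnc1 in paw, in vehicle and 2, 7, 22 and 35 days after PTX (x axis). Points are libraries and bars the mean and SD of 3; in paw the 3 genes have their highest mean at day 22 and a lower one at day 35, and in DRG Epha5 is highest at day 35.

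In paw, 48 genes could be tested (Epha5, Epha6, Epha8 and Epha10 were too low), again with the vehicle group of day 2 for all days. The test called 0 genes at days 2, 7 and 35 and 2 at day 22, where the shares of all genes called were 0%, 0%, 0% and 1.12%. At an unadjusted p under 0.05 there were 5 genes at day 2, 9 at day 7, 16 at day 22 and 0 at day 35, against 7.36%, 13.8%, 18.7% and 5.31% of all genes. Of the 16 at day 22, 13 were higher and 3 lower, where 12.6% of all genes were higher and 6.02% lower. DESeq2 called 0 genes at day 2, 3 at day 7, 8 at day 22 and 0 at day 35. Its share of all genes is not given, and that of edgeR cannot stand in for it. The median log2 fold change of the 48 genes was 0.07 at day 22 and 0.02 at day 35.

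Nrp2, the neuropilin that binds Sema3f and also serves lymphatic vessels, rose in paw at day 22. It stood at 51.8, 59.96 and 47.0 CPM in vehicle, at 54.8, 60.7 and 68.2 at day 2, at 67.3, 76.5 and 88.4 at day 7, at 82.5, 101 and 84.4 at day 22 and at 57.5, 52.5 and 62.0 at day 35. Vehicle and PTX libraries did not overlap at days 7 and 22 and overlapped at days 2 and 35. The log2 fold change was 0.55 ± 0.13 (adjusted p 0.113) at day 7 and 0.75 ± 0.13 (adjusted p 0.0350) at day 22. Leaving out 1 library at a time gave adjusted p between 0.0117 and 0.182, under 0.05 in 2 of 6 cases, and fitting only the 6 libraries compared gave 0.108.

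Epha3 rose with it at day 22, from 0.372, 0.639 and 0.463 CPM in vehicle to 1.58, 2.45 and 1.67 CPM. It had stood at 0.875, 1.22 and 1.26 CPM at day 2 and at 1.16, 1.72 and 1.38 CPM at day 7, all above vehicle, and was at 0.720, 0.396 and 1.32 CPM at day 35, where it overlapped. The log2 fold change at day 22 was 1.94 ± 0.40 (adjusted p 0.0456), and at day 7 it was 1.52 ± 0.41 (adjusted p 0.133). Its adjusted p ranged from 0.0192 to 0.201 with 1 library left out and stayed under 0.05 in 1 of 6 cases. Epha3 had few reads, between 6 and 54 per library over the series. DESeq2's size factors in edgeR, a block by replicate number and the fit of only the libraries compared each ended its call. DESeq2 itself and the fit without the low count filter kept it. With any of the 3 vehicle libraries, or PTX day 22 replicate 2, left out, edgeR called 0 of the members. It called 1 with PTX day 22 replicate 1 left out, and 6 with PTX day 22 replicate 3 left out, namely Epha3, Ephb4, Nrp2, Plxnc1, Sema5a and Sema6b.

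Plxnc1, low in skin, stood at 4.59, 4.36 and 5.23 CPM in vehicle and above that in all PTX libraries of days 2, 7 and 22, at 6.65, 7.09 and 10.4, at 8.23, 6.24 and 8.45 and at 9.32, 9.72 and 7.49 CPM. It was not called, with log2 differences of 0.76 ± 0.23 (adjusted p 0.599), 0.69 ± 0.23 (adjusted p 0.189) and, at day 22, 0.90 ± 0.23 (adjusted p 0.0619). Its ligand Sema7a stood at 23.3, 26.1 and 20.5 CPM in vehicle and at 32.4, 35.4 and 33.0 CPM at day 22. The groups did not overlap, and the log2 difference was 0.53 ± 0.16 (adjusted p 0.103). Plxna3 went the other way, with 29.0, 29.5 and 30.9 CPM in vehicle and 17.8, 15.8 and 20.6 CPM at day 22, a log2 difference of -0.72 ± 0.23 (adjusted p 0.118). Sema7a and Plxna3 were chosen after their values were seen, because DESeq2 called them.

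Of the other members with the smallest p-values in paw, Epha4 at day 2 differed by 0.39 ± 0.14 (adjusted p 0.607), Epha3 at day 2 by 1.17 ± 0.41 and Ephb2 by 0.49 ± 0.20 (adjusted p 0.645). Ephb2 stood at 5.46, 4.18 and 5.60 CPM in vehicle and at 6.57, 8.99 and 9.23 CPM at day 7, a log2 difference of 0.70 ± 0.20 (adjusted p 0.149). At day 35 it was at 3.54, 4.47 and 3.79 CPM, and differed by -0.37 ± 0.21 (adjusted p 0.919). Epha3, Sema5a and Sema4a at day 35 differed by 0.72 ± 0.42, -0.17 ± 0.11 and 0.31 ± 0.20.

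Cell type markers moved in paw on the same days. Fibroblast markers summed to 6428 to 8232 CPM in vehicle, to 9844 to 19432 CPM at day 7, to 12967 to 19670 CPM at day 22 and to 8679 to 11939 CPM at day 35, with 2 of 8 called higher at day 22. Macrophage markers summed to 262 to 441 CPM in vehicle and to 512 to 1318 CPM at day 22, with 1 of 9 called, and adipocyte markers to 506 to 770 and to 958 to 1368 CPM, with 2 of 10 called. Endothelial markers summed to 494 to 624 CPM in vehicle and to 626 to 983 CPM at day 22, with 0 of 8 called. The keratinocyte sums were 42582 to 56310 CPM in vehicle and 24047 to 48269 CPM at day 22. The part of these cells in the values of Nrp2 and Epha3 was not tested. Among partner genes, Slit3, a secreted Robo ligand, rose in paw at day 22 by 1.08 ± 0.21 (adjusted p 0.0456) and Dpysl3, a collapsin response mediator protein of semaphorin signalling, by 0.91 ± 0.16 (adjusted p 0.0350), 1 of 17 and 1 of 29 genes of their lists. In DRG at day 35, Dpysl2 of the same family fell by 0.52 on the log2 scale with an SE of 0.09 (adjusted p 0.0370), 1 of 29.

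**Figure D4:**
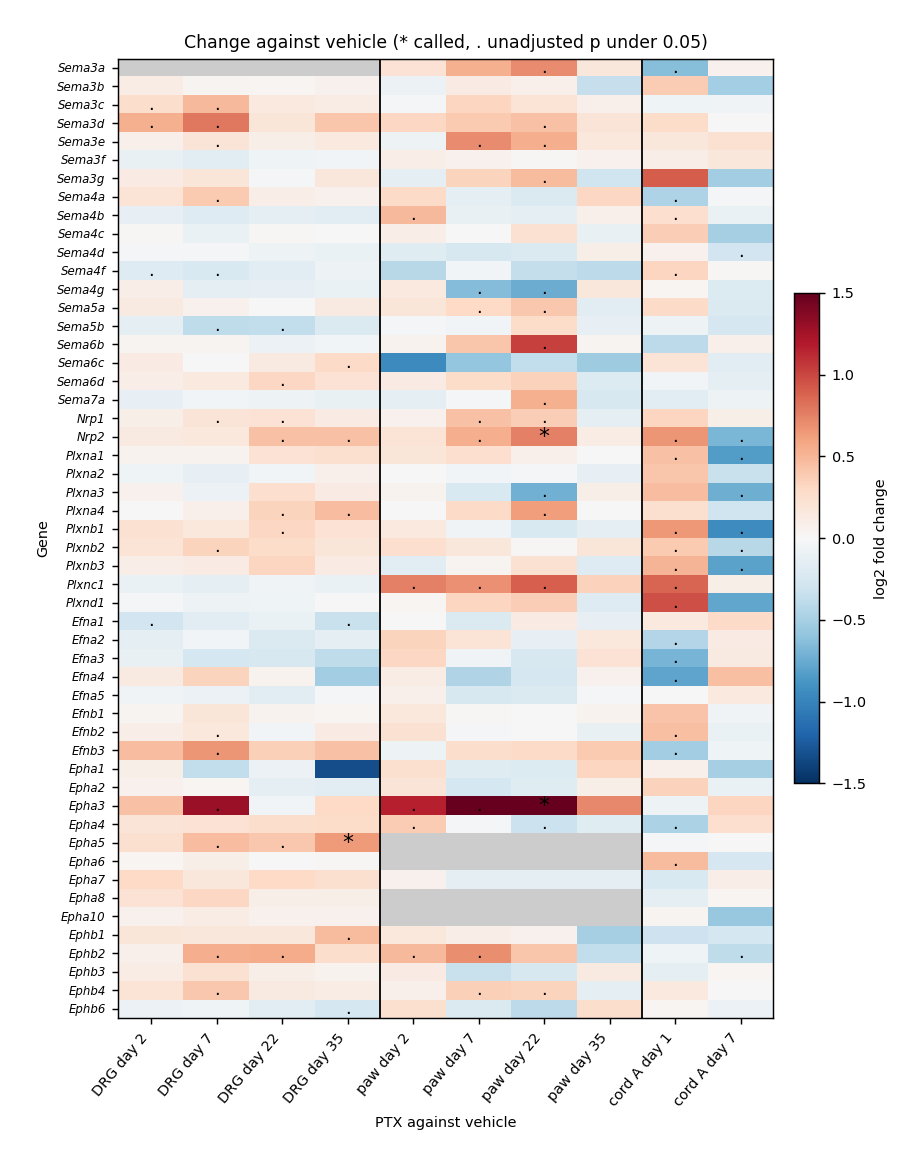
Log2 fold change against vehicle (colour, limited to 1.5 either way) of the 52 genes (rows) in 10 comparisons (columns) of DRG, paw and cord. A star marks genes called by edgeR, a dot an unadjusted p under 0.05, and grey genes not tested; stars stand at Epha5 in DRG at day 35 and at Nrp2 and Epha3 in paw at day 22 only.

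The difference between the PTX effects in DRG and in paw was tested in a fit of both tissues. It was called for 0 genes at days 2, 7, 22 and 35, where the shares of all genes were 0%, 0.196%, 0.0245% and 0.0184%. At an unadjusted p under 0.05 there were 2, 2, 10 and 5 genes, against 6.06%, 13.7%, 13.2% and 7.44% of all genes, and DESeq2 called 0, 1, 3 and 0. Plxnc1 had the smallest p at days 2, 7 and 22, with an effect lower in DRG than in paw by -0.87 ± 0.24 (adjusted p 0.76), -0.84 ± 0.24 (adjusted p 0.118) and -0.94 ± 0.24 (adjusted p 0.101). Its DRG values were high in every group, whereas the paw values were low in vehicle. At day 22 Epha3 differed by -1.95 ± 0.55 (adjusted p 0.124), Plxna3 by 0.99 ± 0.28 (adjusted p 0.125) and Sema7a by -0.59 ± 0.17 (adjusted p 0.132), and at day 35 the smallest p was that of Ephb1, at 0.96 ± 0.34 (adjusted p 0.606). The next members were Sema4b, Sema6c and Ephb2 at day 2, Plxnd1, Sema3e and Nrp2 at day 7 and Ephb2, Epha1 and Epha4 at day 35, with adjusted p between 0.324 and 0.841. Leaving out paw PTX day 22 replicate 3 raised the count at day 22 from 0 to 4. The Epha5 rise of DRG could not be compared, since Epha5 was close to undetected in paw.

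In cord all 52 genes were tested in 1 fit of the 21 libraries. Against the vehicle group of the same day, edgeR called 0 genes at day 1 and 0 at day 7, where 0% of all genes were called on either day. At an unadjusted p under 0.05 there were 18 genes at day 1, 11 higher and 7 lower, and 8 genes at day 7, all lower, against 21.5% of all genes at day 1 (8.02% higher and 13.5% lower) and 15.9% at day 7 (10.2% lower). DESeq2 called 1 gene at day 1, Efna3, and 3 at day 7, Plxna1, Plxnb1 and Plxnb3. With PTX day 1 replicate 2 left out, edgeR called 10 genes at day 1. Efna3 and Epha4 had the smallest p at day 1, at -0.70 ± 0.19 and -0.47 ± 0.13 on the log2 scale, both with an adjusted p of 0.165. All 9 plexins were on the higher side at day 1, with a median log2 fold change of 0.46, and 8 of 9 were on the lower side at day 7, with a median of -0.74, beside medians over all genes of -0.04 and 0.02. The shares of all genes on either side are not given, so these counts do not set the plexins apart. The part of the sensory neuron transcripts in the day 1 values, those of Efna3 and Epha4 included, was not tested.

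The difference between the day 7 and the day 1 effect was itself tested, and it was called for 6 genes, 1 higher and 5 lower, where 8.76% of all genes were called, 2.9% higher and 5.87% lower. At an unadjusted p under 0.05 there were 16 members, against 29.6% of all genes. Plxnb1, the receptor of Sema4d, stood at 157, 99.3 and 143 CPM in vehicle and 200, 202 and 225 CPM after PTX at day 1, and at 280, 274 and 252 CPM in vehicle and 133, 137 and 150 CPM after PTX at day 7. The PTX libraries were all above vehicle at day 1 and all below it at day 7, and the vehicle groups themselves lay apart. The log2 effects were 0.65 ± 0.22 (adjusted p 0.165) and -0.94 ± 0.22 (adjusted p 0.104), and they differed by -1.59 ± 0.31 (adjusted p 0.0148). Plxnb3 stood at 82.1, 67.6 and 86.9 CPM and 123, 99.9 and 114 CPM at day 1, and at 167, 157 and 136 CPM and 79.0, 90.7 and 93.1 CPM at day 7, in the same order of groups. Its groups did not overlap on either day, and its effects differed by -1.31 ± 0.24 (adjusted p 0.0148). For both genes the vehicle group of day 1 lay near the PTX group of day 7.

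Plxna1, a shared receptor of class 3 and class 6 semaphorins, repeated this, with 101, 88.8 and 105 CPM in vehicle and 153, 113 and 136 CPM after PTX at day 1, and 186, 195 and 147 CPM and 93.3, 96.1 and 106 CPM at day 7. Its effects differed by -1.28 ± 0.28 (adjusted p 0.0185). Nrp2 differed by -1.35 ± 0.38 (adjusted p 0.0403) and Plxna3 by -1.20 ± 0.35 (adjusted p 0.0442). Epha4, the receptor through which Efnb3 acts on axons at the cord midline in mice, went the other way, by 0.72 ± 0.18 (adjusted p 0.0293). It stood at 28, 21.5 and 23.0 CPM in vehicle and 13.7, 21.5 and 16.9 CPM after PTX at day 1, which overlapped, and at 27.8, 25.2 and 23.3 CPM and 30.1, 29.6 and 30.9 CPM at day 7, which did not overlap. At day 1 Epha4 was lowest in PTX replicate 1, whose sensory neuron marker sum was the highest. It was highest in vehicle replicate 1, whose sum was the lowest of that day. Between vehicle libraries, set A day 1 included, Epha4 was lower in DRG than in cord by -2.00 ± 0.14.

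These differences rest on the 6 libraries of set A day 1, whose sensory neuron content was highest in PTX replicate 1. Central neuron markers summed to 2713 to 4315 CPM in those 6 libraries and to 4139 to 5680 CPM in the other 15. The part of the sensory and central neuron transcripts in the values of the plexins, Nrp2 and Epha4 was not tested. Leaving out 1 library at a time gave between 0 and 14 called genes: 0, 2 and 3 without PTX day 7 replicates 1, 2 and 3, 2 each without vehicle day 7 replicates 1 and 2, 2 without PTX day 1 replicate 1 and 14 without PTX day 1 replicate 2. Over these 12 cases Plxnb1 and Plxnb3 were each called in 11, Plxna1 in 7, Epha4 in 4 and Nrp2 and Plxna3 in 3 each. The day 7 comparison alone gave the same direction without the set A day 1 libraries, at -0.96 ± 0.22 for Plxnb1, -0.83 ± 0.18 for Plxnb3 and -0.86 ± 0.21 for Plxna1, each with an adjusted p of 0.0990. Fitted on the 6 day 7 libraries alone, 12 genes were called, namely 8 plexins (all but Plxnc1), Ephb1, Ephb2, Sema3g and Sema5b. The share of all genes called in that fit is not given here, so this count cannot be read as a trait of the family. Of the partner genes, 2 of 22 other guidance genes, 5 of 29 semaphorin partners and 6 of 20 ephrin partners were called for the difference between the days, all lower. The same test called 8.76% of all genes, 5.87% lower.

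**Figure D5:**
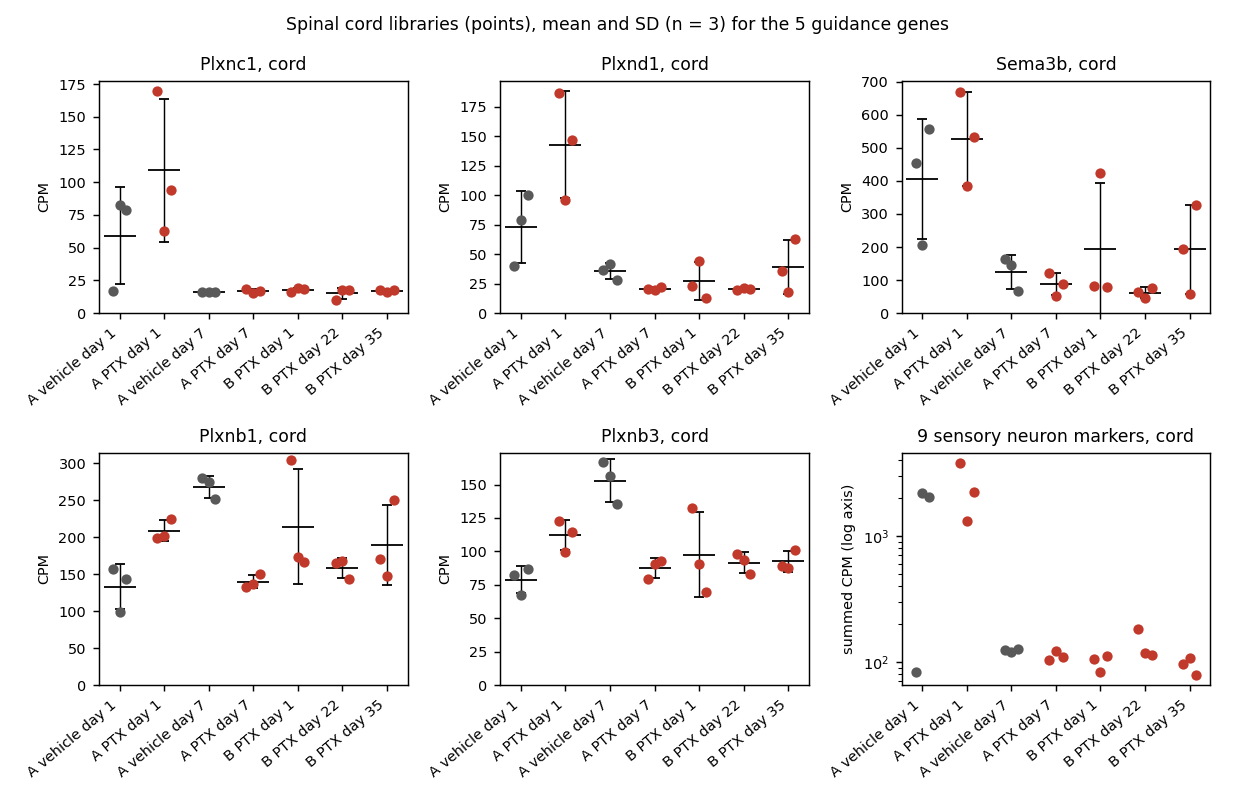
CPM (y axis, scaled within cord) of Plxnc1, Plxnd1, Sema3b, Plxnb1 and Plxnb3 and, on a log axis, the summed CPM of 9 sensory neuron markers, in the 7 cord groups (x axis). Points are libraries and bars the mean and SD of 3; Plxnc1 and Plxnd1 are raised in the libraries of set A day 1 in which the marker sum is raised, and Plxnb1 and Plxnb3 are highest in set A vehicle at day 7.

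Of 3 members with high levels in DRG, Plxnc1 followed the order of the sensory neuron marker sums in these cord libraries, and Plxnd1 and Sema3b did not follow it throughout. Plxnc1 stood at 170, 63.1 and 94.1 CPM in the 3 PTX libraries and at 16.8, 82.4 and 78.6 CPM in the 3 vehicle libraries of set A day 1, the order of their marker sums, and at 10.1 to 18.9 CPM in the other 15. Plxnd1 stood at 187, 95.7 and 147 CPM and at 40.3, 79.3 and 99.9 CPM in the same libraries, with PTX replicate 2 above vehicle replicate 2 although its marker sum was lower. Sema3b stood at 668, 383 and 532 CPM and at 456, 205 and 557 CPM there, so that vehicle replicate 1, at 456 CPM and with a marker sum of 83.0 CPM, did not follow that order; its Schwann cell markers summed to 37880 CPM, the highest of the 21 libraries. Sema3b also reached 425 CPM in set B day 1 replicate 2 and 328 CPM in set B day 35 replicate 3, where the Schwann cell markers summed to 32107 and 22687 CPM against 14430 to 19743 CPM in the other 7 set B libraries. The Schwann cell list includes Mbp, which is also on the oligodendrocyte list. In cord its sums therefore cannot separate Schwann cells from oligodendrocytes. The part of the sensory neuron transcripts and of the genes on the Schwann cell list in these values was not tested.

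In set B, which has no vehicle, the test called 0 genes between days 22 and 1 and 0 between days 35 and 1, where the shares of all genes were 1.09% and 0.0885%. At an unadjusted p under 0.05 there were 7 genes, all lower, and 0 genes, against 13.2% (9.24% lower) and 5.22% of all genes, and DESeq2 called 1 gene, Epha2, and 0. Epha2 stood at 7.36, 15 and 6.92 CPM at day 1 and at 4.62, 3.26 and 4.73 CPM at day 22, which did not overlap, a log2 difference of -1.21 ± 0.34 (adjusted p 0.108). Plxna2, Plxnb2 and Sema3b differed by -0.52 ± 0.20, -0.47 ± 0.18 and -1.66 ± 0.67, the last with an adjusted p of 0.299. At day 35 the smallest p was that of Sema4d, the ligand of Plxnb1, at -0.20 ± 0.11 with an adjusted p of 1, and Plxna2, Plxna1 and Sema3c followed at -0.30 ± 0.20, -0.24 ± 0.20 and -0.15 ± 0.10.

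Against the mean of the set A vehicle groups, set B was called in 0 genes at day 22 and 0 at day 35, where the shares of all genes were 0.43% and 0.373%. Unadjusted, there were 15 genes at day 22, 1 higher and 14 lower, and 2 at day 35, both lower, against 23.6% of all genes (9.63% higher and 14% lower) and 12.8% (7.25% lower), and DESeq2 called 5 and 1. Sema5a, a ligand of Plxnb3, differed at day 22 by -0.82 ± 0.24 (adjusted p 0.0938) and Plxnd1 by -1.32 ± 0.40 (adjusted p 0.0973). Epha2 and Sema3b differed by -0.90 ± 0.30 and -1.86 ± 0.62. Efna1 differed at day 35 by -0.84 ± 0.22 (adjusted p 0.112), Plxnc1 by -0.86 ± 0.38 (adjusted p 0.357), Plxnb3 by -0.25 ± 0.15 and Plxna1 by -0.27 ± 0.17. Without the set A day 1 libraries the differences at day 22 were -0.43 for Sema5a, -0.81 for Plxnd1, -0.58 for Epha2 and -1.02 for Sema3b, and those at day 35 were -0.25 for Efna1, 0.077 for Plxnc1, -0.73 for Plxnb3 and -0.69 for Plxna1, with adjusted p between 0.113 and 0.913 over these 8 values. Leaving out vehicle day 1 replicate 1, the vehicle library of that day without sensory neuron transcripts, raised the count from 0 to 2 on either day. Set and drug cannot be told apart in these comparisons.

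The same drug and day could be compared between the sets, at PTX day 1. There 23 of the 52 genes were called, 12 higher and 11 lower in set B, where 32.9% of all genes were called, 18.5% higher and 14.4% lower in the fit of all 21 cord libraries. Fitted on only the 6 libraries compared, 4 of the 52 were called. The lower genes included Plxnc1 at -2.60 ± 0.44 (adjusted p 0.00111), Plxnd1 at -2.40 ± 0.45 (adjusted p 0.00176), Efna1 at -1.56 ± 0.25 (adjusted p 0.000841), Sema3g at -1.40 and Efnb1 at -1.09, which were all higher in DRG than in cord. Nrp1, Efnb2, Sema4b, Sema4f, Sema5a and Epha6 were lower by between -0.91 and -0.43. The higher genes included Efna3 at 1.04 ± 0.19 (adjusted p 0.00152), Sema3a at 1.01, Efnb3 at 0.89, Sema6b at 0.82 and Ephb1 at 0.62, which were all lower in DRG than in cord. Epha4, Epha5, Epha7, Sema3c, Sema4a, Sema5b and Sema7a were higher by between 0.27 and 0.58. Efna3 stood at 9.94, 21.5 and 19.3 CPM in set A PTX day 1 against 24.6 CPM or more in the cord vehicle libraries. The count was 10 without set A PTX day 1 replicate 1, the library with the most sensory neuron transcripts, and 15 without set B PTX day 1 replicate 3. How often a direction between the sets matched that between DRG and cord was not counted over all genes. The part of the sensory neuron transcripts in these differences was not tested.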

How the data were processed

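The files are raw read counts per gene symbol, 1 table per library, deposited by the authors without normalization. Per the labels' protocols, about 500 ng of total RNA was made into stranded poly(A) libraries and sequenced as 50 bp single reads, and the submitters' processing notes name bcl2fastq, TopHat2, HTSeq and genome build mm9, with the order of steps and strand setting not given in the sources used here. The unassigned-read lines of each table were kept out of library sizes and tests.

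The 52 members and all gene lists were chosen with earlier results of these data known, and 1 further symbol is not reported here. Counts were tested with edgeR 4.0.16 in R 4.3.3: filterByExpr (minimum count 10, total 15), TMM factors, a robust quasi-likelihood fit with 1 coefficient per group, and Benjamini-Hochberg adjustment over all genes tested, called under 0.05. The fits took all libraries of a tissue, or all 51 libraries for comparisons between tissues, where cord was the mean of its vehicle groups. The standard error is the size of the log2 fold change divided by the square root of F, printed after ±, whereas a level's error is the SD of its libraries. The fit was tested on simulated data. CPM were computed from TMM-scaled library sizes, within a tissue or, for tissue levels, over all libraries. Exon lengths came from GENCODE M21 (GRCm38, another build than mm9) for all 52 genes. Promoters came from the RefSeq table of GRCm38.p6, matched by symbol for 47 genes; Sema3b, Efnb3, Sema3f, Plxna4 and Plxna1 were not matched.

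The text names every member called in a comparison with vehicle or between days (up to 25), or else the 4 with the smallest p. Between tissues it names the 3 largest and 3 smallest log2 fold changes among called members of each role class with mean log2 CPM of at least 1 in a tissue, and the member with the highest level in each class and tissue. Other members were named after their values were seen. Alternatives were DESeq2 1.42.0, its size factors in edgeR, no filter on low counts, a replicate block, fits of only the groups compared, leaving out each library in turn and, chosen after seeing the data, leaving out the 6 cord libraries of set A day 1. No 2 libraries had identical counts. The ratios of Epha8 and Epha10 to paw carry exact 95% intervals, which cover counting error only. Other genes with few reads in a tissue carry a log2 fold change and its SE alone.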

Additional observations from a re-analysis of the deposited data

Results flagged for a closer look

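In cord set A, 6 members had a PTX effect at day 7 that differed from their effect at day 1, by a test of the difference itself (edgeR, Benjamini-Hochberg). As log2 differences of day 7 minus day 1, they were Plxnb1 at -1.59, Nrp2 at -1.35, Plxnb3 at -1.31, Plxna1 at -1.28, Plxna3 at -1.20 and Epha4 at 0.72. With 1 of the 12 libraries left out in turn, Plxnb1 and Plxnb3 were each called in 11 of 12 cases, Plxna1 in 7, Epha4 in 4 and Nrp2 and Plxna3 in 3 each. Each rests on the day 1 libraries, of which 5 of 6 held sensory neuron transcripts, and the part of those transcripts was not tested.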

How the results depend on the processing

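The counts of members called between tissues stayed within 1.5 times under each alternative tried, and with 1 library left out they ranged from 44 to 46 for DRG against paw, from 36 to 39 for DRG against cord and were 42 throughout for cord against paw. The counts after PTX moved. DESeq2 called 4 members instead of 0 in DRG at day 7, 2 instead of 1 at day 35, 3 instead of 0 in paw at day 7 and 8 instead of 2 at day 22. In cord it called 1 instead of 0 in set A at day 1, 3 instead of 0 at day 7, 1 instead of 0 between set B days 22 and 1, and 5 and 1 instead of 0 for set B at days 22 and 35 against set A vehicle. For the DRG effect minus that in paw it called 1 at day 7 and 3 at day 22 instead of 0. DESeq2's size factors in edgeR left 1 member, Nrp2, in paw at day 22 and ended the call of Epha3. Fits of only the groups compared called 0 in DRG at day 35, 0 in paw at day 22, 12 in cord set A at day 7, 6 for set B day 22 against set A vehicle and 4 instead of 23 between the sets. The shares of all genes called under these alternatives are not given, so the counts have no background beside them. The cause of these moves was not tested.

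With 1 library left out, the count ranged from 0 to 3 in DRG at day 7 (3 without PTX day 7 replicate 3), was 0 in DRG at day 35, and ranged from 0 to 6 in paw at day 22 and from 0 to 10 in cord set A at day 1 (10 without PTX day 1 replicate 2). It ranged from 0 to 14 for the difference between days, from 0 to 2 for set B against set A vehicle at day 22 and at day 35, from 10 to 28 between the sets and from 0 to 4 for DRG minus paw at day 22. Of 2278 values of named members, 2101 kept direction and call, 137 fell short of the threshold, 38 passed it and 2 changed sign. Plxnc1 in set B day 35 against set A vehicle turned from -0.86 to 0.077 without set A day 1, and Plxna1 between set B days 35 and 1 ranged from -0.41 to 0.14 (0.14 without day 1 replicate 1).

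The main fits did not pair libraries by replicate number, and the tests of DRG minus paw treated the libraries as independent. Deviations from group means of same-numbered libraries correlated at -0.68 to 0.48 over 36 pairs within a tissue. Over 15 pairs of DRG and paw they correlated at -0.24 to 0.33. Such correlations cannot settle whether same-numbered libraries came from the same animal. With the replicate block, 1 member was called in DRG at day 7 (Sema3c), 2 at day 35 (Epha5 and Plxna4) and 1 in paw at day 22 (Nrp2).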
